A study of Mytilus galloprovincialis with 18 samples.

Results

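The gills of treated adult mussels (Mytilus galloprovincialis) of mixed sex were set against the gills of control mussels. The treated mussels were kept for 48 h in sea water with cadmium, copper and mercury chlorides in equimolar mixture, each at 50 nM. The data are 6 of the 18 arrays of the series, chosen by their labels: array A and array B of each of the 3 mussels that were hybridised from the 50 nM tank. The other 12 arrays hold 3 mussels at 100 nM and 3 at 200 nM of the same mixture for the same time, and serve here only for comparison. Every array carried the same reference, a pool of equal amounts of gill RNA from 5 control mussels that were held in parallel in a tank without added metals. Total RNA of each treated mussel competed with the pool for MytArray 1.0, a spotted cDNA array with 1920 probe names at 2 spots each. On array A the mussel carried Cy3 and the pool Cy5, and on array B the dyes were exchanged. Each dose had 1 tank, so dose and tank cannot be told apart, and the pool counts as 1 control sample, so the tests against it leave out the spread between control mussels.

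Gills are the tissue through which a filter-feeding bivalve meets the metals dissolved in the water, and their ciliated epithelium drives the water current. Cadmium, mercury and copper bind the sulphur groups of proteins: metallothioneins are small cysteine-rich proteins that chelate them, ferritin stores iron, and glutathione S-transferases couple glutathione to reactive compounds. Misfolded proteins are refolded by heat shock proteins or marked with ubiquitin and degraded by the proteasome, and sequestosome-1 is a receptor that gathers ubiquitin-marked proteins for autophagy.

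All values below are log2 ratios of the treated mussel to the control pool, so that 1 means a level 2 times that of the pool, -1 means 0.5 times, and 0 means no difference. Each is the mean of 2 spots and, per mussel, of arrays A and B. Over the 6 arrays the median spot intensity was 361 to 1188.5 in the mussel channel and 245 to 1450.5 in the pool channel, 95.9 to 100% of spots were brighter than their local background by over 2 SD, and saturation touched 3 to 24 spots of a channel. The number of arrays, rather than a depth of counting, sets the precision. The array probes carry no names in the files. A description was taken for 446 probes from the study's tables and a figure legend, most of which list probes that the study had selected on these same arrays, and many descriptions name the closest protein of another animal.

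Replicate 3 of the 50 nM dose stood apart from the other 8 mussels of the series. Over the 1920 probes its ratios correlated negatively with each of them, from -0.418 to -0.165 with a mean of -0.276, while the 28 pairs among the other 8 mussels correlated between 0.106 and 0.517 with a mean of 0.298. All these ratios share the pool. Within its own dose the correlation of replicate 3 was -0.377 with replicate 1 and -0.172 with replicate 2, and that of replicates 1 and 2 was 0.162. The rank correlations were -0.170, -0.063 and -0.016 in the same order, so by rank replicates 1 and 2 did not run together either. Arrays A and B of replicate 3 ran the same way (r = 0.353, against 0.281 in replicate 1 and 0.236 in replicate 2), so the opposite course was present in both dye orientations. In arrays of the same dye orientation the lowest correlation was -0.314 (arrays A) and -0.246 (arrays B), each with 7 of 8 values below 0.

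The direction of replicate 3 is therefore not settled by these arrays. The labels and file headers name the dye of mussel and pool on both arrays, and the direction they give was kept throughout. The likeness of its channels to the pools of the other mussels did not decide the matter. In log2 intensity the channel labelled as pool was closer than the channel labelled as mussel to 3 of the 8 other pools in Cy5 and to 3 of 8 in Cy3. In replicate 1, whose ratios ran with the others, it was closer to 7 of 8 in Cy5 and 3 of 8 in Cy3. The difference in mean r, pool minus mussel channel, was -0.0138 in Cy5 and -0.00335 in Cy3 for replicate 3. No other mussel of the series was negative in both dyes, and replicate 1 had 0.0126 and -0.00327. The channels compared in 1 dye lie on different arrays, so array quality enters. Replicate 2, whose array A had displaced blocks (below), had -0.321 and 0.303. The counts of probes called and the values that the text turns on are therefore given as labelled and with the sign of replicate 3 turned, and the main ones also without replicate 3. Replicate 3 was singled out for its opposite ratios, so turning it or leaving it out tends to lower the spread by construction, and a probe that passes the threshold only then is described and is not counted as changed.

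**Figure D1:**
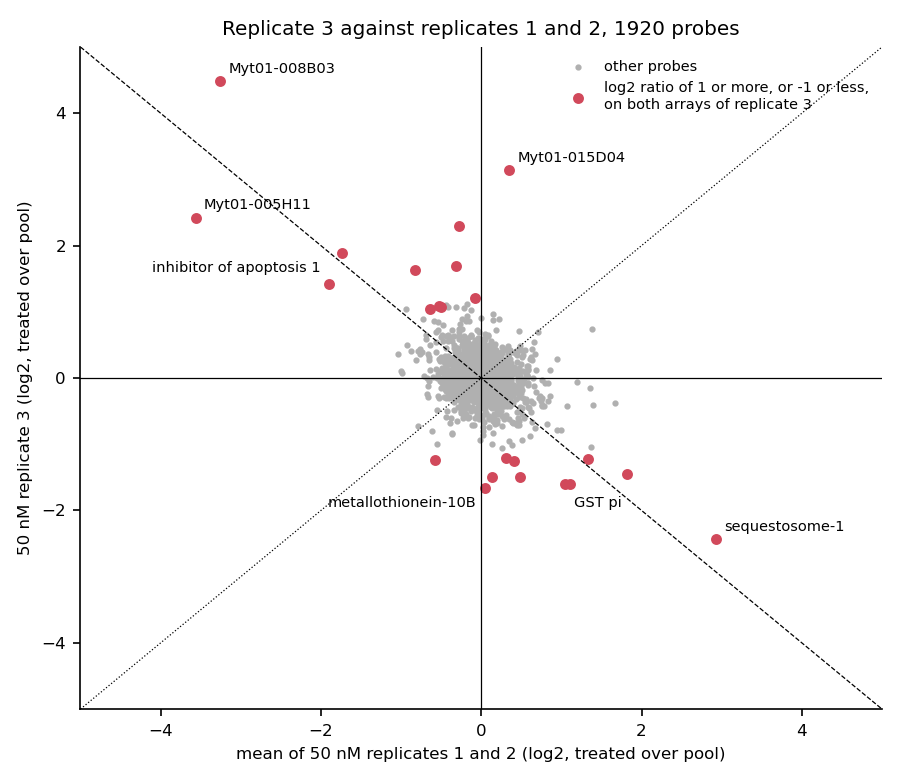
Log2 ratio of 50 nM replicate 3 over the control pool (vertical axis, mean of arrays A and B) against the mean log2 ratio of 50 nM replicates 1 and 2 (horizontal axis), 1 point for each of the 1920 probes. Red points are the 23 probes with a log2 ratio of at least 1 or at most -1 on both arrays of replicate 3, and most of them lie at the upper left and lower right, where the signs are opposite.

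Array A of replicate 2 held a further limit. In 6 of its 16 printing blocks, with 720 probes or 37.5% of all, spot intensities did not follow the listed probes (r with the median of the other arrays -0.0635 to 0.134) but did so when read 1 column aside (r = 0.835 to 0.914). Its other 10 blocks matched as listed (r = 0.461 to 0.894), and apart from 1 block of array A of 100 nM replicate 2, which matched when read 1 row aside, the block values of the 18 arrays, 562 over both channels, had a median r of 0.935. The deposited normalized table followed the listed positions in those blocks (r = 0.913 with the ratios computed here as listed, against 0.124 when moved). Values are given as listed. For probes in these displaced blocks the moved value of array A of replicate 2, or the mean with it, stands beside them. The correlation of the ratios of arrays A and B of replicate 2 in these blocks was 0.170 when moved and 0.0739 as listed.

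**Figure D2:**
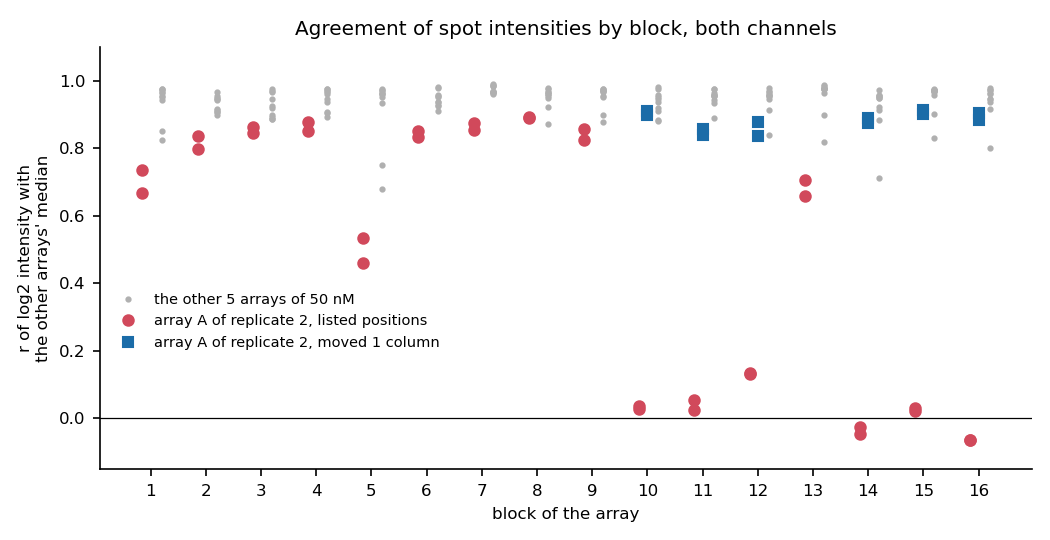
Correlation of log2 spot intensity with the median of the other arrays, for each of the 16 printing blocks and both channels. Red marks array A of 50 nM replicate 2 as listed, blue the same blocks read 1 column aside, and grey the other 5 arrays of the dose. Blocks 10, 11, 12, 14, 15 and 16 lie near 0 as listed and above 0.8 when moved.

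At 50 nM no probe passed an adjusted p of 0.05 against the pool: 0 of 1920 were called (0%), and the smallest adjusted p in limma was 0.650. At an unadjusted p under 0.05 there were 72 probes (3.75%), 41 higher (2.14%) and 31 lower (1.61%) in the 50 nM mussels. This split of higher against lower depended on the scaling and background correction, with 42 higher and 67 lower after median centring, 33 and 51 with print-tip loess, 23 and 48 without background subtraction and 29 and 34 with plain subtraction. One-class significance analysis of microarrays, run here over 8 sign flips of the mussel values, also called 0. The study selected its 27 probes of this dose by that method on its own values and with its own settings, so the counts are not directly comparable. With replicate 3 turned, 5 probes passed (0.260%), and 158 at an unadjusted p under 0.05 (8.23%). Without replicate 3, 2 probes passed (0.104%), and 157 unadjusted (8.18%). With moved positions the count was again 0 as labelled (71 unadjusted, 3.70%), 5 with replicate 3 turned (0.260%) and 2 without it (0.104%). Among the 446 described probes, from which the gene lists were drawn, 15 were higher and 14 lower at an unadjusted p under 0.05 as labelled. Of these, 9 of the higher and 6 of the lower belong to the study's 27 probes of this dose, selected on these same arrays. The counts of the described probes and of the lists are therefore not independent evidence.

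The mussels of the 50 nM dose shared few directions. The sign was the same in all 3 mussels for 380 probes (19.8%), 193 higher (10.1%) and 187 lower (9.74%), and the same on all 6 arrays for 37 higher (1.93%) and 23 lower (1.20%). Replicate 3 alone had the opposite sign for 517 probes, replicate 2 alone for 483 and replicate 1 alone for 540, so that over all probes the count of opposite signs did not single out replicate 3. The difference lay in the probes with large ratios. The median SD of a probe over the 3 mussels was 0.266 at 50 nM, against 0.242 at 100 nM and 0.228 at 200 nM, and 0.256 at 50 nM with replicate 3 turned.

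Probes with a log2 ratio of at least 1 or at most -1 on both arrays of a mussel numbered 29 in replicate 1, 9 in replicate 2 and 23 in replicate 3. Of the 29 of replicate 1, 27 had the opposite sign in replicate 3 and 10 in replicate 2. Of the 9 of replicate 2, 7 were opposite in replicate 3 and 3 in replicate 1. Over all 1920 probes, replicate 3 was opposite to replicate 1 in 1057 and to replicate 2 in 1000, and replicates 1 and 2 shared a sign in 897. Of the 23 of replicate 3 (12 higher and 11 lower than the pool), 20 were opposite in replicate 1 and 19 in replicate 2. This set was picked from the values of replicate 3 and is a description. It holds 10 probes with a described protein, among them sequestosome-1, metallothionein-10B, glutathione S-transferase GSTpi1, ferritin and DAD1, all lower than the pool in replicate 3, and inhibitor of apoptosis 1, higher than the pool there.

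Sequestosome-1 (probe Myt01-007D04), the autophagy receptor, had the highest ratio on the 6 arrays among probes described by a similarity to a protein. Its ratio was 4.26 on array A and 4.39 on array B of replicate 1, 1.76 and 1.32 in replicate 2, and -2.40 and -2.46 in replicate 3. Replicates 1 and 2 were far above the pool on all 4 arrays and replicate 3 far below it on both. The mean was 1.15 ± 3.39 (SD, n = 3; adjusted p = 0.992 in limma), 2.76 with replicate 3 turned (adjusted p = 0.0126) and 2.93 without it. Polyubiquitin, the precursor of the ubiquitin tag, had the same order at smaller size, with 0.62, 0.29 and -0.60 in replicates 1, 2 and 3. The 3 probes of ubiquitin and its receptor had means above 0, with a median of 0.10 (-0.16 without replicate 1), and 0 passed at an unadjusted p.

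The 10 probes for proteasome subunits, the parts of the protease that degrades ubiquitin-marked proteins, had a median of 0.15, with 7 above and 3 below 0 and none at an unadjusted p under 0.05. Their median per mussel was 0.40, 0.19 and -0.30 in replicates 1, 2 and 3. A subunit of the 26S regulatory part without ATPase activity (Myt01-003G03) was the highest, with 1.02, 0.96 and -0.79. With replicate 3 turned the list's median was 0.32.

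The 7 probes for metal-binding and antioxidant proteins had 4 means above and 3 below 0, a median of 0.033, and none at an unadjusted p under 0.05. Their medians were 0.33 and 0.29 in replicates 1 and 2 and -1.02 in replicate 3, the widest such gap of the lists of at least 5 probes, and the median was 0.59 with replicate 3 turned. The sign of this median was not stable: it was -0.46 without replicate 1, -0.15 without replicate 2 and just below 0 with median centring (-0.018), print-tip loess (-0.011) and scaling between arrays (-0.0071). Metallothionein-10B (Myt01-016C08), a member of the metallothionein family that binds cadmium, copper and mercury, had the lowest mean of the list as labelled, but not with replicate 3 turned. Its ratio was 0.46 and 0.38 on arrays A and B of replicate 1, -0.76 (moved, -0.037) and 0.11 in replicate 2, and -1.68 and -1.64 in replicate 3, with a mean of -0.52 ± 1.05 (SD, n = 3). Replicate 1 lay above the pool, replicate 2 near it and replicate 3 clearly below it, and the mean was -0.40 with the moved position and 0.59 with replicate 3 turned.

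Ferritin (Myt01-013D11) had 0.12 and 0.53 in replicate 1, -0.15 and 0.73 in replicate 2, and -1.23 and -1.18 in replicate 3, with a mean of -0.20 ± 0.88 (SD, n = 3). GSTpi1 (Myt01-010C12), a glutathione S-transferase of the pi class, had 1.91 and 1.98 in replicate 1, -0.033 and 0.56 in replicate 2, and -1.43 and -1.76 in replicate 3, with a mean of 0.20 ± 1.77 (0.17 with the moved position). For both genes replicate 3 was the only mussel below the pool on both arrays. Turned, the means were 0.61 for ferritin and 1.27 for GSTpi1, which did not pass the threshold (adjusted p = 0.156 for GSTpi1). Thioredoxin, which reduces protein disulphides, was above the pool in all 3 mussels (0.030, 0.41 and 0.11).

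Heat shock proteins and a chaperonin subunit, which fold or hold other proteins, had 8 of 8 means above 0, with a median of 0.40. Of the 8, 2 were higher at an unadjusted p under 0.05 (2.14% of all probes). The list holds probes of small HSP24.1 and HSP90 that the study had selected for this dose on these same arrays. The count is therefore not independent evidence. None of the 8 passed the adjusted threshold. Their median was 0.74 in replicate 1, 0.47 in replicate 2 and -0.23 in replicate 3, where 2 of 8 were above 0. Turned, the median was 0.52, and 0.69 without replicate 3.

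One of the 2 probes for small HSP24.1, a small heat shock protein that holds unfolded proteins, was among the few stress genes above the pool on all 6 arrays. Probe Myt01-011G05 had 1.05 and 0.74 on arrays A and B of replicate 1, 0.13 and 0.93 in replicate 2, and 0.78 and 0.60 in replicate 3, with a mean of 0.71 ± 0.18 (SD, n = 3; adjusted p = 0.992). Here replicate 3 did not run against the others, and turning it lowered the mean to 0.25. The other probe, Myt01-013C12, gave 1.63 and 1.52 in replicate 1, 0.062 and -0.24 in replicate 2 and -0.39 and -0.29 in replicate 3 (mean 0.38 ± 1.04), so the 2 probes of this protein disagreed in replicates 2 and 3. Myt01-013C12 lies in a displaced block, and its mean was 0.35 with the moved position.

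HSP90, the chaperone of kinases and receptors, had a mean of 0.39 ± 0.26 on probe Myt01-016G09, above the pool in all 3 mussels (0.63, 0.42 and 0.11), and 0.40 ± 0.46 on Myt01-015D01 (0.75, 0.57 and -0.12). Heat shock cognate 70 (Myt01-010B03), a constitutive member of the HSP70 family of folding enzymes, had 0.57, 1.56 and -0.42, and heat shock cognate 71 (Myt01-007E01) 0.46, 1.22 and -0.070. Heat shock protein 70 (Myt01-014B11) had 0.72, 0.29 and -0.55, the lowest mean of the list as labelled (0.16 ± 0.65, SD, n = 3). Turned, its mean was 0.52, and that of small HSP24.1 probe Myt01-011G05, the highest as labelled, was the lowest (0.25). In the second probe of HSP90, heat shock cognates 70 and 71 and heat shock protein 70, replicate 3 was the only mussel below the pool.

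**Figure D3:**
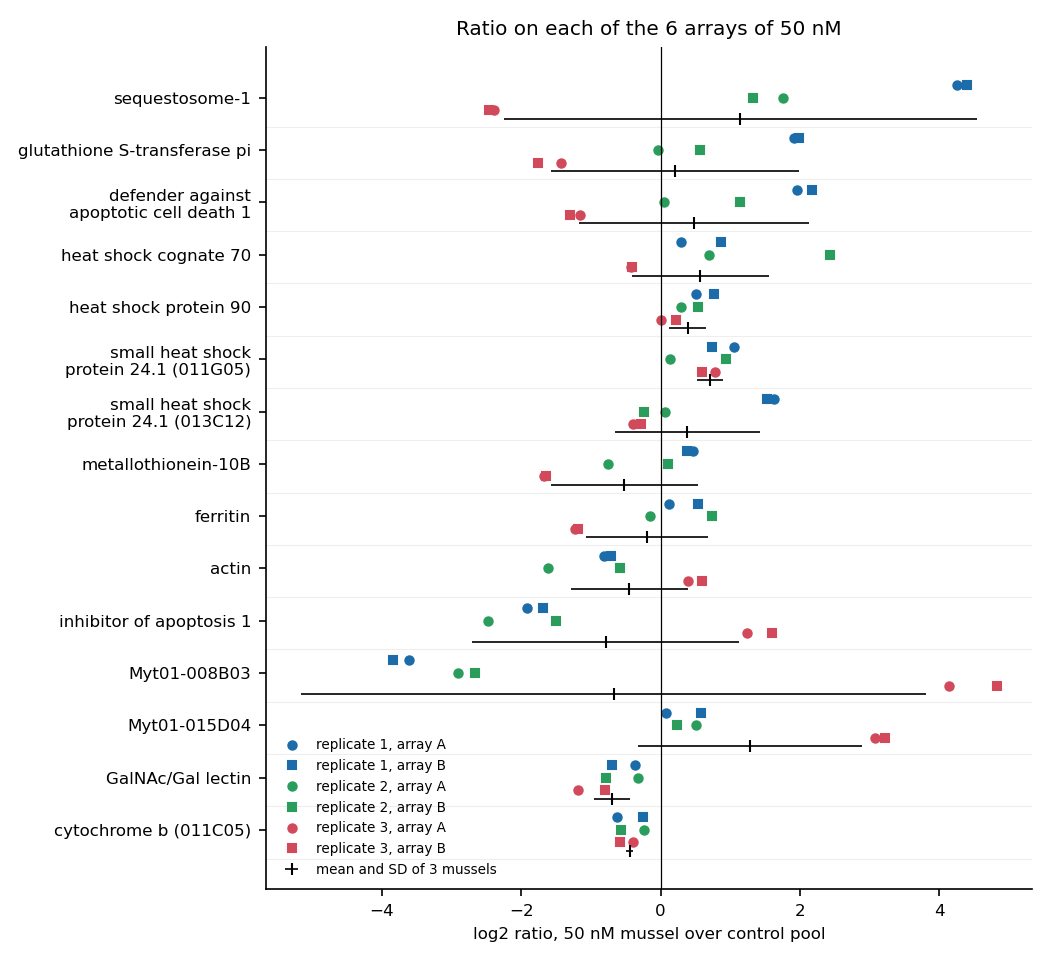
Log2 ratio over the control pool of 15 probes on the 6 arrays of the 50 nM dose. Points are arrays A and B of replicates 1, 2 and 3, and bars the mean and SD of the 3 mussels. Sequestosome-1 spans 4.39 to -2.46, and small HSP24.1 and cytochrome b keep 1 sign on all 6 arrays.

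Probes for cell cycle and apoptosis, 11 in all, had 8 means above and 3 below 0, a median of 0.10 and none at an unadjusted p under 0.05. Inhibitor of apoptosis 1 (Myt01-007H08), which blocks caspases, had -1.92 and -1.68 on arrays A and B of replicate 1, -2.48 and -1.50 in replicate 2, and 1.24 and 1.59 in replicate 3. Replicates 1 and 2 were low on all 4 arrays and replicate 3 high on both, with a mean of -0.79 ± 1.91 (SD, n = 3). It passed the threshold with replicate 3 turned (-1.74, adjusted p = 0.00057) and without it (-1.89, adjusted p = 0.00381).

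DAD1, the defender against apoptotic cell death, is a subunit of the oligosaccharyltransferase that glycosylates new proteins, and its probe Myt01-017B11 had 2.06, 0.60 and -1.23 in the 3 mussels. GADD45 gamma (Myt01-006C05), a stress sensor that arrests growth when DNA is damaged, had 0.72, -0.36 and 0.039, so replicate 2 rather than replicate 3 was the lowest. Its mean was 0.13 ± 0.55 (SD, n = 3) and differed little with replicate 3 turned (0.11).

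The probes that passed only with replicate 3 turned or left out were not all of known function. Beside sequestosome-1 and inhibitor of apoptosis 1, 3 probes without similarity to a known protein passed when it was turned: Myt01-008B03 (-3.66, adjusted p = 9.87e-05), Myt01-014B07 (1.69, adjusted p = 0.0126) and Myt01-005C09 (0.89, adjusted p = 0.0126). Myt01-008B03 had -3.61 and -3.84 in replicate 1, -2.90 and -2.66 in replicate 2, and 4.13 and 4.83 in replicate 3. As labelled, its mean was -0.68 ± 4.49 (SD, n = 3). It was the other probe called without replicate 3 (-3.25, adjusted p = 0.00272).

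Transcripts for the translation machinery had list medians whose sign was not stable. The 35 ribosomal protein probes, parts of both ribosomal subunits, had 30 means below and 5 above 0, against 941 below and 979 above among all 1920 probes, with a median of -0.10 and none at an unadjusted p under 0.05. Their medians were 0.079, -0.056 and -0.23 in replicates 1, 2 and 3. In replicate 3 none of the 35 was above the pool, and 9 were below it in all 3 mussels (against 9.74% of all probes). The median was 0.084 with replicate 3 turned and 0.040 after median centring. It stayed below 0 with each mussel left out, at -0.17, -0.12 and -0.0071 without replicates 1, 2 and 3.

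Translation factors had a median of 0.068, with 7 of 12 above 0. Of the 12, 3 were higher at an unadjusted p under 0.05 (2.14% of all probes). Poly(A)-binding protein, initiation factor 5A and elongation factor 2b had been selected by the study for this dose on these same arrays. The count of this list is therefore not independent evidence. The median was -0.11 without replicate 1, -0.073 without replicate 2, 0.26 without replicate 3 and -0.0063 with scaling between arrays. Poly(A)-binding protein (Myt01-005D09), which coats the tail of messenger RNA, was above the pool on all 6 arrays, with 0.094 and 0.72 in replicate 1, 1.00 and 1.98 in replicate 2, and 0.10 and 0.48 in replicate 3 (mean 0.73 ± 0.66, SD, n = 3). Replicate 2 was the high mussel. Initiation factor 5A and elongation factor 2b, which act in the elongation of the peptide chain, had means of 0.43 ± 0.37 and 0.36 ± 0.30 with all 3 mussels above the pool. Elongation factor 1 gamma (Myt01-012F11) was the lowest of the list at -0.17 ± 0.13, with all 3 mussels below the pool (0.024 with replicate 3 turned, when the median of the list was 0.34).

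Mitochondrial genome transcripts, which encode core subunits of the respiratory chain, had 9 of 13 means below 0 and a median of -0.050. Of the 13, 4 were lower at an unadjusted p under 0.05 (1.61% of all probes). The 4 were 2 of the 3 probes of cytochrome b, NADH dehydrogenase subunit 1 and a clone spanning ND5, ND6 and cytochrome b. All were below the pool in all 3 mussels. All but the clone had been selected by the study for this dose on these same arrays, so they are not independent evidence. Cytochrome b probe Myt01-011C05 had -0.62 and -0.25 on arrays A and B of replicate 1, -0.24 and -0.58 in replicate 2, and -0.40 and -0.59 in replicate 3, with a mean of -0.45 ± 0.044 (SD, n = 3; adjusted p = 0.992). The 3 mussels differed little, but the pool channel of this probe was saturated on 1 of the 6 arrays. The third cytochrome b probe (Myt01-019B12), saturated in the pool channel on 4 arrays, had 0.16, 0.46 and -0.55, so the probes of this gene disagreed. With replicate 3 turned, none of the 13 was lower at an unadjusted p under 0.05 and the median was 0.022. It was 0.11 after median centring.

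Of 6 nuclear-encoded respiratory probes 4 were above 0, with a median of 0.032 (-0.066 without replicate 2, and below 0 with each of the other scalings). Electron transfer flavoprotein subunit alpha (Myt01-012B12), which passes electrons from fatty acid oxidation to the respiratory chain, was below the pool on all 6 arrays (-0.39 ± 0.30, SD, n = 3), with replicate 2 the lowest at -0.72.

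Tubulins and actins, the subunits of microtubules and microfilaments, had 6 of 8 means below 0 and a median of -0.20. Of the 8, 1 was lower at an unadjusted p under 0.05 (1.61% of all probes). Their medians were -0.59 and -0.27 in replicates 1 and 2 and 0.35 in replicate 3. After median centring the median of the list was 0.0084. Actin (Myt01-015H12) had -0.81 and -0.72 in replicate 1, -1.61 and -0.58 in replicate 2, and 0.40 and 0.59 in replicate 3, and beta tubulin had -1.09, -0.45 and 0.44 in the 3 mussels. Both were below the pool in replicates 1 and 2 only. One alpha tubulin probe (Myt01-015C02), in a displaced block, was below the pool on all 6 arrays, with a mean of -0.35 ± 0.21 as listed and -0.37 moved. The study had selected this probe for this dose on these same arrays, so it is not independent evidence.

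The 7 probes for axoneme and cilia, the beating apparatus of the gill epithelium, had a median of -0.055, with 4 below and 3 above 0. Of the 7, 2 were lower at an unadjusted p under 0.05 (1.61% of all probes). Radial spokehead protein (Myt01-010G08), part of the spokes that control the beat, was below the pool in replicates 1 and 2 (-0.93, -0.27 and 0.017). It lies in a displaced block, and its means as listed and moved were -0.39 and -0.47. In whole gill RNA, fewer ciliated cells and less RNA per ciliated cell cannot be told apart. The list's median per mussel was -0.58, 0.056 and 0.21 in replicates 1, 2 and 3, so replicate 1 alone was low, and the median without it was 0.16.

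Among immune genes the lectins, proteins that bind the sugars of microbes, were all below 0 (5 of 5, median -0.26). Of the 5, 1 was lower at an unadjusted p under 0.05 (1.61% of all probes). The study had selected the GalNAc/Gal-specific lectin and incilarin A for this dose on these same arrays, so this count is not independent evidence. GalNAc/Gal-specific lectin (Myt01-009H08) had -0.38 and -0.70 in replicate 1, -0.32 and -0.78 in replicate 2, and -1.19 and -0.80 in replicate 3. It was below the pool on all 6 arrays as listed, with a mean of -0.70 ± 0.26 (SD, n = 3; adjusted p = 0.992), but array A of replicate 2 gave 0.14 when moved, with a mean of -0.62. Turning replicate 3 brought its mean to -0.033. Incilarin A (Myt01-015B09), a lectin first described in slugs, had -1.31 and -1.30, then -0.38 and 0.67, then -1.08 and -1.39 in replicates 1, 2 and 3, so replicate 2 stood apart here.

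C1q domain proteins, pattern recognition proteins of bivalve haemolymph, had 2 of 6 means above 0 and a median of -0.11 (0.074 with replicate 3 turned, 0.012 after median centring), and antimicrobial and haemocyte effectors 1 of 6 above 0 and a median of -0.11. None of these 12 had an unadjusted p under 0.05. The highest was MgC1q98 (Myt01-014G05), above the pool in all 3 mussels with 0.49, 0.19 and 0.23.

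Of 13 probes for stress kinases and signalling 9 were above 0, with a median of 0.062. At an unadjusted p under 0.05, 2 of 13 were higher (2.14% of all probes). Cytoplasmic phospholipase A2 (Myt01-014H05), which releases arachidonic acid from membranes, had 0.24 and 1.28 on arrays A and B of replicate 1, 0.28 and 0.75 in replicate 2, and 0.15 and 0.40 in replicate 3, all above the pool, with array B the higher in each mussel. Its mean was 0.52 ± 0.24 (SD, n = 3; adjusted p = 0.992). Suppressor of cytokine signaling 2 (Myt01-012D01), an inhibitor of JAK-STAT signalling, had 1.51 and 1.42, 0.31 and 1.53, and -0.049 and -0.062 in replicates 1, 2 and 3, so it was high in replicates 1 and 2 and at the level of the pool in replicate 3 (mean 0.78 ± 0.77).

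The other lists held few probes away from 0. Collagens and byssus proteins had a median of 0.069 (10 of 15 above 0), spliceosome and RNA-binding proteins 0.039 (9 of 15), histones and chromatin -0.052 (3 of 8), membrane transporters -0.15 (2 of 6), secretory and vesicle traffic 0.0096 (7 of 9), prolyl isomerases 0.10 (2 of 3) and transfer RNA synthetases 0.13 (2 of 3). None of the probes of these 7 lists had an unadjusted p under 0.05, and each of the 7 medians changed sign under at least 1 alternative. Members with wide ranges were the nongradient byssal precursor (Myt01-013C05), a protein of the threads by which mussels attach, with -1.86, -0.0032 and 1.05 in replicates 1, 2 and 3, and the taurine transporter (Myt01-012F06), which carries an osmolyte, with 1.01, 0.25 and -0.66. Both again had replicates 1 and 3 on opposite sides.

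**Figure D4:**
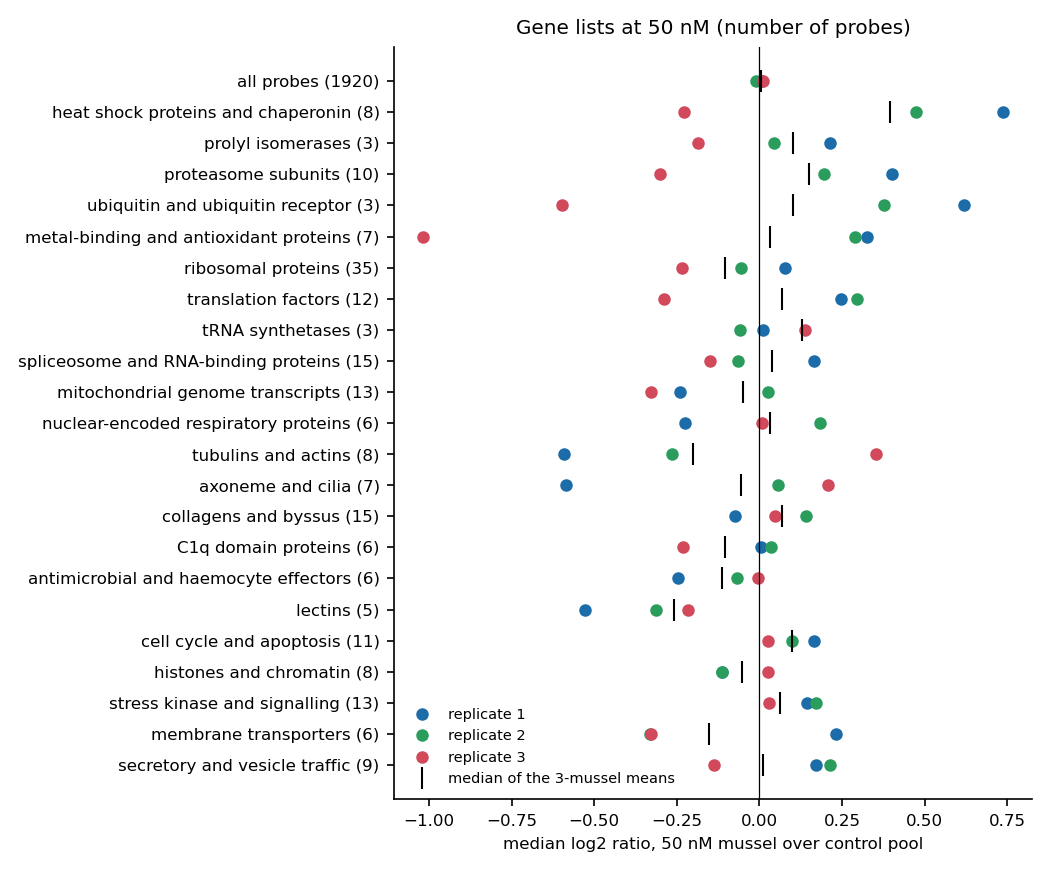
Median log2 ratio over the control pool of each gene list in 50 nM replicates 1, 2 and 3 (points) and the median of the means of the 3 mussels (bar), with all 1920 probes for comparison. Replicate 3 alone lies on the other side of 0 for 10 of the 22 lists: heat shock proteins, prolyl isomerases, proteasome, ubiquitin, metal-binding proteins, translation factors, tubulins and actins, C1q proteins, histones and secretory probes.

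The probe with the smallest p at 50 nM had no description, and whether it is a mussel probe or a control spot is unmarked in the files. Myt01-020G08 had -0.49 and -1.11 in replicate 1, -0.82 and -0.74 in replicate 2, and -0.18 and -1.26 in replicate 3. Its mean was -0.77 ± 0.040 (SD, n = 3; adjusted p = 0.650), the means of the 3 mussels being close together while arrays A and B of replicate 3 were not. It lies in a displaced block and had no moved value on array A of replicate 2. The highest mean among probes of 1 sign on all 6 arrays was that of a hypothetical protein (Myt01-015D04), with 0.082 and 0.58, 0.51 and 0.23, and 3.07 and 3.22 in replicates 1, 2 and 3. Its mean of 1.28 ± 1.61 was carried by replicate 3 and was 0.35 without it and -0.81 with it turned. Of the 20 probes with the highest and lowest means among those of 1 sign on all 6 arrays, 10 each way, 11 had no description or no similarity to a known protein.

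The 27 probes of the list selected for this dose by the study, 18 as higher and 9 as lower, were chosen on these same arrays, so the direction of that list is not independent evidence. In the values computed here 18 of 18 were above 0 with a median of 0.43, and 9 of 9 were below 0 with a median of -0.35. Of the 18, 14 were above the pool in all 3 mussels (10.1% of all probes) and 9 were higher at an unadjusted p under 0.05 (2.14% of all probes). Of the 9, 7 were below the pool in all 3 mussels (9.74% of all probes) and 6 were lower at an unadjusted p under 0.05 (1.61% of all probes). Replicate 3 was above the pool in 17 of the 18 and above it in 0 of the 9, and with its sign turned the medians were 0.25 and -0.033. At 100 and 200 nM the medians of these probes were 0.011 and 0.11 for the 18 and -0.061 and -0.064 for the 9. They include small HSP24.1, poly(A)-binding protein, HSP90, GTP-binding protein 4 and the GalNAc/Gal-specific lectin, and do not include sequestosome-1, metallothionein-10B, ferritin or GSTpi1, whose replicates had opposite signs.

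Against the next dose, 50 minus 100 nM, 0 of 1920 probes were called (0%), with 85 at an unadjusted p under 0.05 (4.43%), 37 lower (1.93%) and 48 higher (2.50%) at 50 nM. Against the highest dose, 50 minus 200 nM, 0 were called (0%, smallest adjusted p 0.304), with 195 unadjusted (10.2%), 96 lower (5.00%) and 99 higher (5.16%) at 50 nM. The pool cancels in these differences, but the tank does not. A fit of all 18 arrays with a dye term and the mussel as a block called 6 probes in 50 minus 200 nM, 1 higher and 5 lower, among them heat shock protein 70 (-1.32, adjusted p = 0.0224), metallothionein-10B (-2.19, adjusted p = 0.0441) and elongation factor 1 gamma (-0.75, adjusted p = 0.0473). This fit used 1 correlation of 0.116 for the arrays of a mussel over all probes, so it treats them as nearly independent. Its calls rest on arrays more than on mussels and are not counted as changed. In the fit on mussel means, the count with replicate 3 turned or left out was 0 in both contrasts. The fit of 18 arrays was not run in those settings.

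The mean of metallothionein-10B was -0.52 ± 1.05 at 50 nM, 0.58 ± 0.63 at 100 nM and 1.67 ± 0.98 at 200 nM (SD, n = 3 each). The difference of 50 minus 200 nM was -2.19 ± 0.56 (SE, adjusted p = 0.315), -1.08 with replicate 3 turned and -1.62 without it, so it was negative in each case and passed in none. Heat shock protein 70 had 0.16 ± 0.65, 0.99 ± 0.22 and 1.48 ± 0.34, and small HSP24.1 (Myt01-011G05) 0.71 ± 0.18, 0.84 ± 0.58 and 1.96 ± 0.86, at 50, 100 and 200 nM. Each of these genes had its lowest mean at 50 nM as labelled. With replicate 3 turned the means at 50 nM were 0.585 for metallothionein-10B, against 0.581 at 100 nM and so no longer the lowest, 0.52 for heat shock protein 70 and 0.25 for small HSP24.1.

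Sequestosome-1 had 1.15 ± 3.39 at 50 nM, 3.67 ± 0.73 at 100 nM and 4.82 ± 0.74 at 200 nM. Replicate 1 of the 50 nM dose (4.32) lay within the levels of the higher doses, replicate 2 (1.54) below them and replicate 3 (-2.43) on the other side of the pool, and the difference of 50 minus 200 nM, -3.67 ± 1.23 (SE), had an adjusted p of 0.385. It was -2.05 with replicate 3 turned (adjusted p = 0.506) and -1.89 without it (adjusted p = 0.651). For ferritin the means were -0.20, -0.14 and 0.88, for GSTpi1 0.20, 0.81 and 2.07 and for GADD45 gamma 0.13, 0.34 and 1.04 at 50, 100 and 200 nM. Turned, ferritin (0.61) and GSTpi1 (1.27) were higher at 50 than at 100 nM. Inhibitor of apoptosis 1 had -0.79 (turned, -1.74), -1.56 and -1.24, with replicate 3 of 50 nM the only one of the 9 mussels above the pool.

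**Figure D5:**
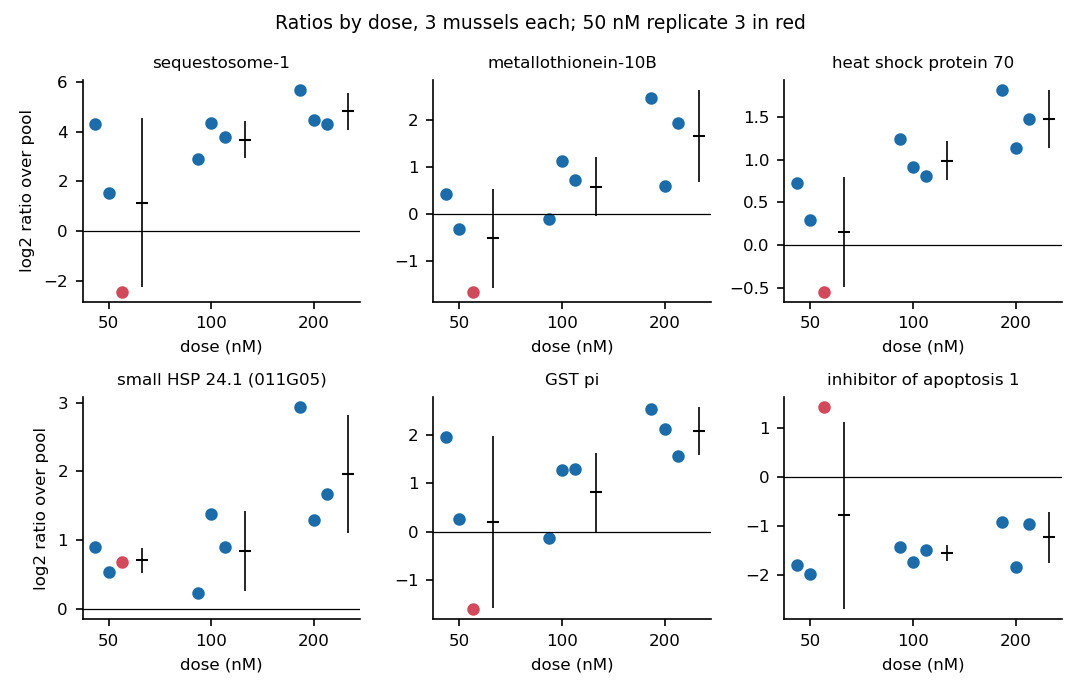
Log2 ratio over the control pool of 6 genes at 50, 100 and 200 nM, 1 point per mussel with the mean and SD of the 3 mussels. 50 nM replicate 3 is red. In sequestosome-1 it lies at -2.43, while the other 8 mussels are above the pool.

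As labelled, the medians of the stress lists were lower at 50 nM than at 200 nM. For the heat shock list they were 0.40, 0.62 and 1.26 at 50, 100 and 200 nM, for the proteasome 0.15, 0.21 and 0.47, for ubiquitin and its receptor 0.10, 0.39 and 1.00, and for metal-binding and antioxidant proteins 0.033, 0.38 and 0.48. The medians at 50 nM with replicate 3 turned were 0.52, 0.32, 0.50 and 0.59 in that order, so that the metal-binding list was higher at 50 than at 200 nM, and all but the heat shock list were higher at 50 than at 100 nM. Ribosomal proteins had -0.10, 0.081 and 0.34, and mitochondrial genome transcripts -0.050, -0.12 and -0.36. The median of all 1920 probes was 0.0037, 0.0042 and -0.022. These lists were drawn in large part from probes selected by the study at any dose, and the difference of medians was not tested.

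The labelled tissue was checked against markers. All 6 probes for ciliated gill epithelium were above background in both channels on all 6 arrays, but so were those for other tissues, since nearly all spots were, so the background does not tell the tissues apart. Relative to the pool, the median was 0.036 for ciliated gill epithelium (-0.11 with replicate 3 turned; 3 of 6 above 0, 2 lower at an unadjusted p under 0.05), 0.12 for muscle (3 of 3 above 0), 0.070 for foot and byssus gland (6 of 10), -0.11 for haemocytes (1 of 5), -0.14 for digestive gland (0 of 5) and 0.029 for gonad (1 of 2). In the 5 lists other than ciliated gill epithelium, 0 probes had an unadjusted p under 0.05, against 3.75% of all probes. In replicate 3 the medians of these lists were 0.11, -0.073, 0.051, -0.012, 0.021 and -0.040 in the same order. Their part in the results was not tested.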

How the data were processed

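Per the labels and methods, the slides were scanned confocally and read with ScanArray Express. The deposited scanner intensity values, 1 per spot and channel beside a local background, are before subtraction. The authors also deposited log2 ratios per spot, made with total-intensity and LOWESS normalization in MIDAS, which served as an alternative. From the intensity values, background was corrected with normexp (offset 50) and each array's log2 ratios were normalized with loess (span 0.3, 4 iterations). Spots of a probe were averaged, and then the 2 arrays of each mussel. Per the methods the array also carries controls unrelated to mussels. The files mark no control spots or flags, so none was left out, and shares are over all 1920 probe names, which include these controls. The PCR of pooled RNA made by the study was not used here. The fit used limma 3.58.1 (R 4.3.3) on the 9 mussels with a mean for each dose, and Benjamini-Hochberg adjustment over 1920 probes at a threshold of 0.05. Unadjusted p values come from the same fit. The script was tested on simulated data.

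Named probes are the 10 highest and 10 lowest means among those of 1 sign on all 6 arrays, probes called in any fit shown, the highest, lowest and PCR-measured members of the gene lists, and the study's 27 probes. Other list members and the probes large in replicate 3 were picked with their values in view. The members and lists were chosen with earlier results of these data known. Moved positions, alone and with replicate 3 turned or left out, and leaving out array A of replicate 2 were alternatives chosen after seeing the data. No sequences were at hand for these probes. One item is not reported here.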

Additional observations from a re-analysis of the deposited data

How the results depend on the processing

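The count of probes called at 50 nM was 0 under every alternative that kept replicate 3 as labelled. These included another background correction or none, print-tip loess, median centring, scaling, the authors' log2 ratios, 1 spot and 1 dye orientation. They also included all 18 arrays in 1 fit, moved positions, and array A of replicate 2 left out. The unadjusted counts of these alternatives, those without replicate 1 or 2 included, ran between 55 (without replicate 2) and 168 (arrays B). A filter on dim probes kept all 1920 and so was no separate check. The count was 5 with replicate 3 turned, 5 with moved positions as well, and 2 with moved positions and without replicate 3, and leaving out each mussel in turn gave 0 to 2. It was 6 for 50 minus 200 nM with 18 arrays, a dye term and the mussel as a block, a fit that treats the arrays of a mussel as nearly independent. With the replicate number as a block 0 were called at 50 nM (75 unadjusted). Samples of the same number did not deviate together (r = -0.101 to 0.149, 4 of 9 nearest to their own number), so the numbers do not pair the mussels. The mean correlation of replicate 3 with the other mussels was -0.173 with median centring, -0.145 on arrays A, -0.139 on arrays B, 0.276 when turned and 0.275 when turned with moved positions.

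List medians that shifted by more than the spread of the mussels were as follows. Turned, ribosomal proteins had 0.084, C1q proteins 0.074, lectins -0.033, secretory probes 0.22, haemocyte markers 0.037, foot markers 0.0072, and the study's 2 lists 0.25 and -0.033. Turned with moved positions, they had 0.093, 0.074, 0.024, 0.22, 0.037, 0.021, 0.24 and -0.019 in that order, and translation factors 0.42. With moved positions and without replicate 3, translation factors had 0.41, lectins -0.43, cell cycle 0.18, histones -0.15 and foot markers 0.022. Arrays A gave -0.21 for nuclear respiratory probes, -0.068 for transfer RNA synthetases and 0.16 for gonad markers, and arrays B -0.10 for gonad markers, 0.19 for cell cycle and 0.012 for foot markers. Cell cycle had 0.21 without array A of replicate 2. The first spot gave -0.46 for lectins, 0.00497 for haemocyte markers and -0.012 for foot markers. Foot markers had 0.0033 and synthetases -0.020 without background subtraction, and foot markers 0.022 with print-tip loess and 0.014 in the authors' values. Leaving out each mussel in turn gave -0.16 to 0.035 for prolyl isomerases, 0.018 to 0.24 for synthetases, -0.15 to 0.12 for RNA-binding proteins, -0.065 to 0.095 for collagens, -0.55 to -0.16 for lectins, 0.0044 to 0.18 for cell cycle, -0.15 to 0.042 for histones, 0.024 to 0.14 for signalling and -0.000232 to 0.065 for foot markers. The cause was not tested. Translation factors gave -0.11 to 0.26, metal-binding proteins -0.46 to 0.27 and nuclear respiratory probes -0.066 to 0.12. No list median was tested, and signs did change. Of 600 list medians under alternatives 78 had the other sign, in 22 of the 30 lists and marker sets, as had 3 of 400 values of probes with 1 sign on all 6 arrays. The 8 sets that kept their sign were heat shock proteins, antimicrobial effectors, cell cycle, signalling, muscle and digestive gland markers and the 2 lists selected by the study. Of all 1117 values under alternatives 128 shifted by more than the spread and 11 counts of probes were larger by over 1.5 times. These totals include the filter on dim probes, which removed none and so could change no value.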

Other observations

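Several probes with the largest ratios at 50 nM had no similarity to a known protein. Myt01-005H11 had -3.37 and -4.57 on arrays A and B of replicate 1, -3.88 and -2.43 in replicate 2, and 1.90 and 2.95 in replicate 3, and Myt01-002C11 had -1.75 and -1.58, -2.96 and -0.67, and 2.08 and 1.70. In both, replicates 1 and 2 were below the pool on all 4 arrays and replicate 3 above it on both, the pattern of Myt01-008B03. The means of Myt01-005H11 were -1.57, -1.64 and -0.93 at 50, 100 and 200 nM, and those of Myt01-002C11 at 100 and 200 nM were -1.32 and -1.56. Thymosin beta-4-like protein (Myt01-016D05), which binds actin monomers, had -0.61 and -0.38 in replicates 1 and 2 and 1.07 in replicate 3. These probes were chosen after their values were seen.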
